A study of Homo sapiens with 9 samples.

Results

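HNT34 cells carrying the EVI1-directed shRNA sh#16 were compared with HNT34 cells carrying a non-targeting shRNA (NT). The 3 sh#16 and 3 NT libraries were assigned to their groups by the sample labels and are 6 of the 9 libraries of the series. The remaining 3 libraries carry another EVI1-directed shRNA, sh#87, which lowered EVI1 further and enters here only as a direct comparison. Its number is 87 in the sample titles and 18 in another label of the same libraries, so which construct they carry is not settled by the labels. HNT34 is a human acute myeloid leukaemia (AML) cell line with a rearrangement of the long arm of chromosome 3 and high EVI1 expression. Each shRNA was delivered with a lentiviral vector that also carries a red fluorescent protein and puromycin resistance, and RNA was taken 3 days after puromycin selection. The groups therefore share the cell line, the vector and the selection, and differ in the shRNA. Each knockdown is 1 construct in 1 cell line, and nothing in the labels says that the 3 libraries of a group came from separate cultures, so SDs and p-values measure the spread between libraries, which may be technical.

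EVI1, the product of the MECOM gene, is a zinc finger transcription factor that blood stem cells need for self-renewal. Rearrangements that place MECOM under the control of a foreign enhancer drive an aggressive form of AML, in which the cells keep stem cell and megakaryocyte features and are blocked from maturing. EVI1 can repress genes through CtBP and histone deacetylases and can also activate genes, so that a knockdown can move genes in both directions.

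The libraries held between 26966189 and 31268456 counts in the NT group and between 17096170 and 43502389 in the sh#16 group. Levels are given as CPM, the count of a gene per 1000000 counts of its library after TMM scaling, in the order of replicates 1, 2 and 3, and means are given ± SD over n = 3 libraries. A value in parentheses after a gene or after its mean levels is its log2 fold change with sh#16 against NT. The NT libraries stood apart from one another far more than the sh#16 libraries did, with a biological coefficient of variation of 25.0% against 3.75%. Mitochondrially encoded genes took 15.9%, 11.5% and 4.69% of the counts in the NT libraries and 2.69% to 2.88% in the sh#16 libraries. On the first principal component, which held 79.3% of the variance of the 9 libraries, NT replicate 3 was the NT library nearest to the knockdown. Nucleolin (NCL) illustrates this spread, with 2226, 1591 and 979 CPM in the NT and 429, 459 and 453 CPM in the sh#16 libraries. Counts of members that rose and fell are also given without NT replicate 3 for the lists described at length. Without this library 11224 of 16461 genes tested had an adjusted p of at most 0.01, 5598 higher and 5626 lower, against 9790 with it. The counts of members without it are therefore not a stricter check. Without NT replicate 1 the median log2 fold change went from -0.68 to -0.56 for nucleolar ribosome biogenesis genes and from -0.80 to -0.99 for ATF4 and amino acid synthesis genes. The share of ribosomal RNA and small RNA genes was 3.28% to 5.76% in NT and 6.80% to 7.56% in sh#16 libraries. The part of these library differences in any result was not tested.

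Markers of a myeloid blast were present as the label AML implies: 8 of 10 such markers were in the table, 7 of them at 1 CPM or more in all 6 libraries, with a summed level of 2037 to 2151 CPM in NT and 651 to 658 CPM in sh#16 libraries. Most of this difference lay in PTPRC, at 821 to 895 and 137 to 148 CPM, and CD34, at 667 to 769 and 114 to 118 CPM. KIT, SPI1 and CSF2RB were also lower. ANPEP was at 217 to 301 and 278 to 288 CPM and CD33 at 40.0 to 44.5 and 37.1 to 39.3 CPM, and LYZ was higher with sh#16. Defining markers of red cells were not listed, and the summed level of the listed B cell markers was 21.1 to 48.5 CPM in NT and 5.70 to 6.18 CPM in sh#16 libraries. The listed T and NK cell markers summed to 31.6 to 41.0 CPM in NT and 10.8 to 12.1 CPM in sh#16 libraries, and the listed monocyte markers to 38.5 to 51.0 and 83.5 to 83.7 CPM. The monocyte sum holds ITGAM, at 31.2 to 37.7 CPM in NT and 80.3 to 80.8 CPM in sh#16 libraries, and CSF1R, at 7.35 to 13.4 and 2.94 to 3.33 CPM, which went opposite ways. Mast cell and basophil markers summed to 2.12 to 2.49 and 1.53 to 2.25 CPM, and epithelial and stromal markers to 5.93 to 13.8 and 26.1 to 27.0 CPM. The last of these sums was nearly all PDGFRB in NT and nearly all COL1A1 in sh#16 libraries. In bulk RNA of this kind, fewer cells of a type and less RNA per cell cannot be told apart.

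MECOM, which spans chr3:169083507-169663712 in GRCh38, was measured at 571, 504 and 440.5 CPM in the NT and 145, 143 and 145 CPM in the sh#16 libraries. All sh#16 libraries lay below all NT libraries and within a few CPM of each other. The log2 fold change -1.81 (SE 0.09, adjusted p = 3.33e-07) left 28.6% of the NT level. A 2-sided exact permutation test of 3 against 3 libraries gave p = 0.1, the smallest that 20 arrangements allow. The sh#87 libraries kept 21.3% of the NT level, and MECOM was higher with sh#16 than with sh#87 by 0.43 (SE 0.09, adjusted p = 0.00661) on the log2 scale.

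Across the transcriptome, edgeR's quasi-likelihood test found 4868 of 16312 genes higher with sh#16 (29.8%) and 4922 lower (30.2%), with the adjusted p no larger than 0.01. In the text a gene is said to have risen or fallen only where it passed this threshold. Of these, 1297 higher genes (7.95%) and 790 lower genes (4.84%) also had a log2 fold change of 2 or more in either direction, and these 2087 genes (12.8%) are called DEGs. In 6289 genes (38.6%) all 3 sh#16 libraries lay above all 3 NT libraries, and in 5843 (35.8%) all lay below. Groups without overlap were thus common, and they were also a condition for naming many of the genes below. Where a lack of overlap is stated for a gene, it describes its levels and is no added support. Of the 9790 genes past the threshold, 5551 changed by 1 or more on the log2 scale in either direction, while 1844 rose and 2395 fell by less than 1. Large rises outnumbered large falls, with 177 genes up and 69 genes down by 5 or more on the log2 scale. Of the DEGs, 66 had 0 counts in every NT library and 17 had 0 counts in every sh#16 library. Over all genes the median log2 fold change was 0.04, which serves as the reference for the gene lists. The shares of all genes that rose (29.8%) and fell (30.2%) are the reference for the counts of members in every list.

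**Figure D1:**
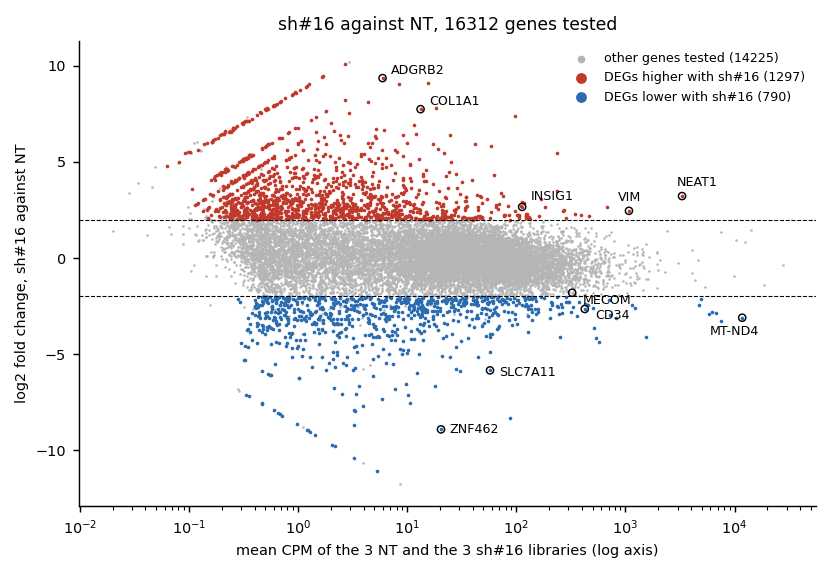
Log2 fold change of sh#16 against NT (vertical axis) against the mean CPM of the 6 libraries (horizontal log axis), with 1 point per gene for the 16312 genes tested. Coloured points are the 1297 higher and 790 lower DEGs that lie beyond 2 on either side of 0.

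The highest log2 fold changes belonged to genes that NT cells hardly expressed. ADGRB2, a brain-type adhesion receptor, was at 0, 0.0433 and 0 CPM in the NT and 11.3, 11.995 and 12.3 CPM in the sh#16 libraries, a ratio of 906 (95% counting interval 162.3 to 35820.5). TMEM59L, a neuronal membrane protein, was at 0, 0 and 0.0667 CPM in the NT and 16.1, 18.7 and 15.2 CPM in the sh#16 libraries, with a ratio of 658 (95% counting interval 182 to 5439.9). The rule that named these genes required groups without overlap, and all 3 sh#16 libraries were far above all NT libraries for both genes. The same held for PHOSPHO1, a phosphatase of bone mineralization, which reached 5.90, 5.25 and 5.09 CPM. COL1A1, a chain of type I collagen, was at 0.172, 0.0433 and 0.133 CPM in the NT and 26.9, 25.9 and 26.3 CPM in the sh#16 libraries (log2 fold change 7.75, SE 0.19, adjusted p = 1.33e-08). PMEL, a pigment cell fibril protein, rose from 0.150 ± 0.0757 to 36.4 ± 1.01 CPM (SD, n = 3; log2 fold change 7.82, SE 0.19, adjusted p = 1.29e-08). The unnamed transcript RP11-274N19.4 rose to 29.9, 32.6 and 31.3 CPM (log2 fold change 9.09), and the tubulin TUBB2A went from 0.0430, 0.0433 and 0 to 7.99, 8.21 and 9.80 CPM. The small nucleolar RNA SNORA67 went from 0 counts in NT to 2.97, 7.11 and 5.97 CPM, at least 146-fold higher against 3 counts over the group. TUBB2A and SNORA67 share reads with near-identical copies, so their counts are uncertain.

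At the other end stood genes that were nearly silent with sh#16. ZNF462, a zinc finger protein of chromatin, was at 47.7, 41.3 and 33.2 CPM in the NT and 0.0803, 0.0432 and 0.164 CPM in the sh#16 libraries (log2 fold change -8.92, SE 0.30, adjusted p = 4.76e-08). INHBE, an activin subunit of the TGF-beta family, was at 5.85, 7.28 and 10.6 CPM in the NT and 0.0401, 0.0432 and 0 CPM in the sh#16 libraries, and the ratio of NT to sh#16 was 243 (95% counting interval 82.9 to 1184). SLC8A3, a sodium and calcium exchanger, was at 6.71, 7.15 and 5.77 CPM in the NT and 0, 0.0216 and 0.0548 CPM in the sh#16 libraries. In each of these genes every sh#16 library lay below every NT library, which the rule that named them required. The read-through transcript BIVM-ERCC5 fell with a log2 fold change of -7.55, and CTD-2562J17.6 and RP11-321N4.5 had 0 counts in every sh#16 library, at least 296-fold and 189.9-fold lower against 3 counts over the group. The glycophorin GYPE (ratio 578 (95% counting interval 103 to 22869.7)) and the immunoglobulin segment IGHV3-30 (298 (95% counting interval 82.0 to 2465)) belong to families of near-identical genes, so reads could be split between copies.

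On the scale of CPM itself, which is not corrected for gene length, the largest gains were in nuclear RNAs and in a few highly expressed protein-coding genes. The nuclear RNA NEAT1, the scaffold of paraspeckles, was at 644, 648 and 618 CPM in the NT and 5968, 5896 and 6007 CPM in the sh#16 libraries (log2 fold change 3.23, SE 0.09, adjusted p = 2.49e-08). MALAT1, a nuclear RNA of speckles, was at 9539, 7589.7 and 5614 CPM in the NT and 20410.0, 20434 and 20814 CPM in the sh#16 libraries (log2 fold change 1.44, SE 0.18, adjusted p = 9.09e-05), and RMRP, the RNA of an endonuclease, rose by 1.41 on the log2 scale. Both nuclear RNAs were higher in every sh#16 library than in any NT library. Vimentin (VIM), an intermediate filament protein, was at 331, 338 and 326 CPM in the NT and 1844, 1809 and 1809.9 CPM in the sh#16 libraries (log2 fold change 2.46, SE 0.07, adjusted p = 2.21e-08). The peroxidase PRDX1 rose from 186 ± 53.8 to 1174 ± 27.4 CPM (log2 fold change 2.66), and the ubiquitin ligase UBE4A rose from 165 ± 9.96 to 756 ± 19.8 CPM (log2 fold change 2.19). All 6 of the largest losses were mitochondrially encoded mRNAs, which are described with the other mitochondrial genes.

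**Figure D2:**
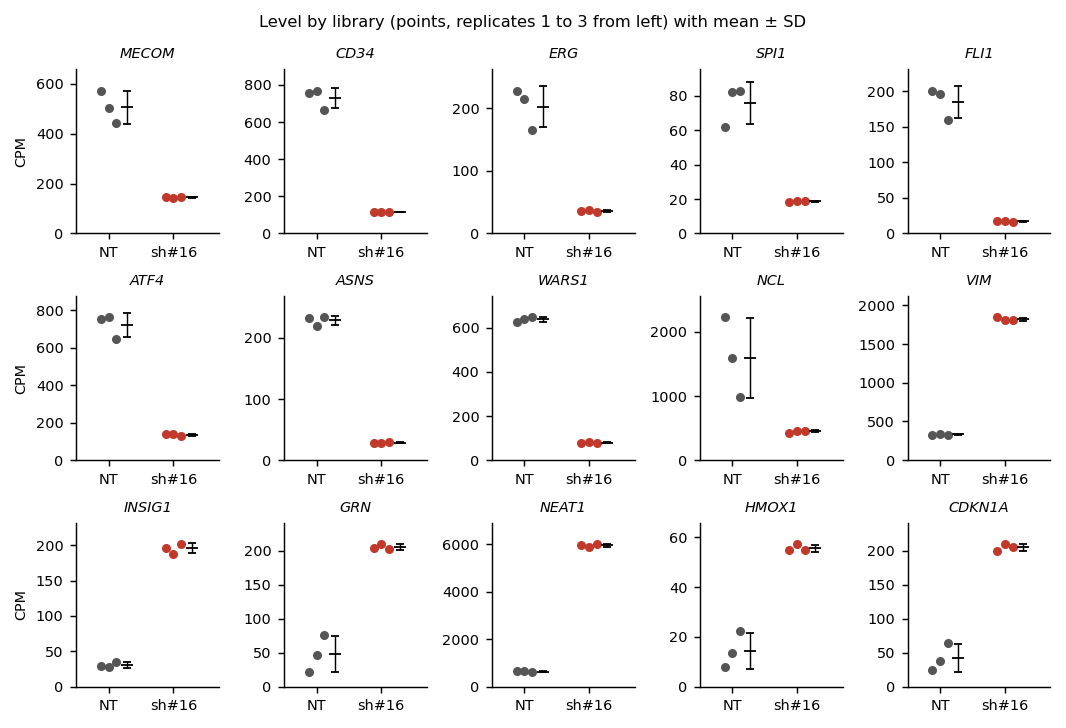
Level in CPM (vertical axis, 1 panel per gene) in the NT and sh#16 libraries for 15 genes of different roles; points are the 3 libraries of a group and bars the mean ± SD. The sh#16 libraries lie close together in every panel, while NT libraries spread widely in genes such as NCL and HMOX1.

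Genes of stem and progenitor cells mostly went down. Of 27 such genes tested, 16 fell (59.3%) and 5 rose (18.5%), against 30.2% and 29.8% of all genes, with a median log2 fold change of -0.92; 6 rose and 17 fell without NT replicate 3. CD34, the surface marker of blood progenitors, was at 756, 769 and 667 CPM in the NT and 116, 118 and 114 CPM in the sh#16 libraries (log2 fold change -2.65, SE 0.07, adjusted p = 2.02e-08). ERG, an ETS factor of stem cells, was at 228, 215 and 166 CPM in the NT and 36.0, 37.5 and 34.7 CPM in the sh#16 libraries (log2 fold change -2.49, SE 0.12, adjusted p = 3.16e-07). For both, every sh#16 library was below every NT library. ANGPT1, a ligand of the receptor TIE2, fell from 559 ± 39.1 to 79.7 ± 3.11 CPM (log2 fold change -2.81), and the RNA-binding protein MSI2 fell from 257 ± 12.3 to 40.5 ± 0.519 CPM (log2 fold change -2.67). The sialomucin EMCN and the stem cell factor receptor KIT fell as well (-2.77 and -1.33). The exceptions that rose were PROCR (2.04), BAALC (1.96), IL3RA (0.75), HOXA10 (0.56) and FLT3 (0.41), which were picked out after their values were seen. The call of HOXA10 ended when any of 3 single libraries was left out (adjusted p up to 0.0127, without NT replicate 2). The call of FLT3 ended when any of 3 single libraries was left out (adjusted p up to 0.0124, without sh#16 replicate 1).

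A list of 14 genes linked to EVI1 in the literature was split: 8 fell and 3 rose, with a median log2 fold change of -0.39. SPI1, the myeloid master factor PU.1, was at 61.7, 82.5 and 82.9 CPM in the NT and 18.3, 19.1 and 18.7 CPM in the sh#16 libraries (log2 fold change -2.02, SE 0.13, adjusted p = 1.64e-06). GATA2, whose enhancer drives EVI1 in some rearrangements, was at 76.0, 107 and 123 CPM in the NT and 81.5, 79.7 and 73.8 CPM in the sh#16 libraries and did not pass (log2 fold change -0.38), nor did RUNX1 (-0.07, which was 0.04 with upper-quartile scaling). The AP-1 subunit FOS rose from 0.368 ± 0.122 to 11.4 ± 0.705 CPM (log2 fold change 4.89).

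Among 24 myeloid transcription factors, 13 fell (54.2%) and 5 rose (20.8%), with a median log2 fold change of -0.61. FLI1, an ETS factor of megakaryocytes, was at 200.4, 196 and 159 CPM in the NT and 17.8, 17.5 and 16.3 CPM in the sh#16 libraries (log2 fold change -3.42, SE 0.11, adjusted p = 3.86e-08). The macrophage factor MAF fell from 32.2 ± 5.97 to 2.96 ± 0.167 CPM (log2 fold change -3.45). The inhibitors of DNA binding went the other way: ID3 rose from 0.530 ± 0.321 to 33.8 ± 0.775 CPM (log2 fold change 5.91) and ID2 rose by 1.68. KLF2, a Krüppel-like factor of quiescent leukocytes, rose from 0.260 ± 0.151 to 9.02 ± 0.262 CPM (log2 fold change 5.03). CEBPA, the granulocyte factor, was at 22.0, 32.4 and 59.4 CPM in the NT and 69.3, 78.1 and 76.7 CPM in the sh#16 libraries, and its log2 fold change of 0.98 did not pass (adjusted p = 0.0138). HOX genes fell in 10 of 20 cases and rose in 4 (median -0.75); HOXB2 went from 88.5 ± 19.3 to 7.56 ± 0.596 CPM (log2 fold change -3.54) and HOXA9, a leukaemia-associated factor, fell by 0.78.

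Megakaryocyte and platelet genes fell in 12 of 16 cases (75%) and rose in 3, with a median log2 fold change of -1.002; 3 rose and 12 fell without NT replicate 3. VWF, the von Willebrand factor, was at 172, 223 and 315 CPM in the NT and 38.3, 36.9 and 38.2 CPM in the sh#16 libraries (log2 fold change -2.65, SE 0.19, adjusted p = 2.79e-06). GP6, the platelet collagen receptor, fell from 15.5 ± 1.155 to 0.121 ± 0.0474 CPM (log2 fold change -6.82), and the fibrinogen receptor chain ITGA2B fell from 182 ± 80.0 to 64.9 ± 2.35 CPM (-1.49). Of 5 defining megakaryocyte markers only 2 were listed, ITGA2B and VWF. Their summed level, 280 to 582 CPM in NT and 100 to 105 CPM in sh#16 libraries, therefore adds nothing to the values of these genes. Erythroid genes followed, with 9 of 13 lower and 2 higher (median -1.93). The Rh-associated glycoprotein RHAG fell from 17.5 ± 1.48 to 0.840 ± 0.0976 CPM (log2 fold change -4.34), as did HEMGN (-3.56) and GYPC (-2.79). The erythropoietin receptor EPOR rose from 2.25 ± 0.719 to 12.9 ± 1.58 CPM (2.50). GATA1, the erythroid master factor, was at 0.301, 0.910 and 1.03 CPM in the NT and 0.883, 1.23 and 1.37 CPM in the sh#16 libraries and did not pass against NT, and of 5 mast cell, basophil and eosinophil genes, 2 fell and 0 rose.

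Monocyte and macrophage genes divided evenly, 7 up and 7 down of 19 (median 0.60). The lectin LGALS1 rose from 35.4 ± 14.9 to 301 ± 12.7 CPM (log2 fold change 3.09, SE 0.26, adjusted p = 7.09e-06). The immunoglobulin G receptor FCGR2A, picked after its value was seen, rose from 10.3 ± 2.27 to 58.0 ± 0.886 CPM and the integrin ITGAX from 6.31 ± 1.92 to 22.6 ± 0.987 CPM (log2 fold changes 2.50 and 1.83). In the same list the adaptor TYROBP fell from 23.6 ± 7.59 to 2.97 ± 0.640 CPM (log2 fold change -2.96), as did the scavenger receptor CD36 (-4.03), the protease CTSS (-2.55) and the macrophage growth factor receptor CSF1R (-1.68). Of 6 granulocyte genes, 3 fell and 1 rose. Cathepsin G (CTSG), a granule protease, fell from 5.53 ± 0.660 to 0.135 ± 0.0715 CPM (log2 fold change -5.14). The lysozyme gene LYZ, chosen after its value was seen, was at 0.516, 0.563 and 0.734 CPM in the NT and 2.77, 2.83 and 3.12 CPM in the sh#16 libraries and rose.

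Genes of other lineages that HNT34 expresses at low or moderate levels also moved. B cell genes fell in 7 of 10 cases and rose in 1 (median -2.11); 2 rose and 7 fell without NT replicate 3. BANK1, a B cell scaffold protein, was at 80.4, 67.4 and 56.0 CPM in the NT and 4.33, 3.63 and 3.40 CPM in the sh#16 libraries (log2 fold change -4.16, SE 0.16, adjusted p = 7.61e-08). CD79A, a chain of the B cell receptor complex, fell from 26.3 ± 13.3 to 3.76 ± 0.126 CPM, as did the factor PAX5 (-2.33). IGHM fell from 365 ± 19.6 to 41.6 ± 1.34 CPM, with reads that related segments could share. Of 10 T and NK cell genes, 4 fell and 3 rose; the kinase LCK fell from 25.4 ± 5.22 to 3.59 ± 0.360 CPM (log2 fold change -2.81), and the interleukin receptor chain IL2RB rose from 1.09 ± 0.389 to 10.5 ± 0.633 CPM (3.24). Neuronal and synaptic genes rose in 10 of 20 cases and fell in 7 (median 0.64); the synaptic adhesion protein NLGN1 fell from 20.2 ± 3.41 to 0.117 ± 0.0867 CPM (log2 fold change -7.11). Of the 6 epithelial and stromal genes, 4 fell and 1 rose: the endothelial proteins PECAM1 and CDH5 fell (-1.96 and -2.24), and the growth factor receptor PDGFRB fell from 9.64 ± 3.96 to 0.132 ± 0.0452 CPM.

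In cytokine signalling, JAK-STAT genes fell more often than they rose. Of 27 JAK-STAT and SOCS genes, 14 fell (51.9%) and 5 rose (18.5%), with a median log2 fold change of -0.39. STAT5A, a transcription factor activated by growth factor receptors, was at 308, 366 and 388 CPM in the NT and 56.4, 58.5 and 56.4 CPM in the sh#16 libraries (log2 fold change -2.63, SE 0.09, adjusted p = 4.65e-08). Its feedback targets SOCS2 and CISH fell (-1.70 and -1.22), as did the kinase PIM1 (-0.54) and the phosphatase PTPN6 (-1.80), whereas STAT4 rose from 1.16 ± 0.197 to 9.56 ± 0.453 CPM (3.05). Cytokine and growth factor receptors showed no common direction, with 7 of 27 higher and 8 lower; 12 rose and 8 fell without NT replicate 3. Among PI3K, AKT and mTOR genes 11 fell and 9 rose of 28, including the phosphatase INPPL1 (-1.92), which fell, and the stress protein SESN3 (1.701), which rose. Of 15 cytokines and chemokines, 6 fell and 3 rose. The cytokine genes LTB, PDGFA and VEGFA fell (-4.14, -2.47 and -1.72).

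Of 32 ERK feedback and immediate early genes, 14 rose (43.8%) and 9 fell (28.1%), against 29.8% and 30.2% of all genes. Only the share that rose thus stood apart from that of all genes. Without NT replicate 3, 16 rose and 9 fell. DUSP5, a nuclear phosphatase of ERK, was at 6.92, 8.06 and 11.6 CPM in the NT and 83.9, 82.1 and 86.8 CPM in the sh#16 libraries (log2 fold change 3.24, SE 0.17, adjusted p = 4.24e-07), and IER3, a survival gene, rose from 7.72 ± 0.563 to 61.6 ± 3.40 CPM (2.99). DUSP6, the cytoplasmic ERK phosphatase, fell from 971 ± 147 to 527 ± 4.99 CPM (-0.88), and ATF3 fell by 2.81. Within the 23 NF-kB genes, 7 rose and 6 fell, and 11 rose and 6 fell without NT replicate 3: the inhibitor NFKBIA fell from 40.7 ± 3.68 to 11.3 ± 0.202 CPM (-1.84), while BIRC3 and TRAF1, which restrain cell death, rose by 2.29 and 3.01. Of 30 TGF-beta and SMAD genes, 11 fell and 8 rose: the receptor-regulated SMAD1 fell from 23.0 ± 3.49 to 6.35 ± 0.386 CPM (-1.85) and the inhibitory SMAD7 rose from 10.6 ± 1.35 to 22.3 ± 0.320 CPM (1.07). Wnt and Notch genes held 8 that rose and 6 that fell of 22; the stem cell receptor LGR5 fell from 17.61 ± 0.568 to 0.673 ± 0.179 CPM (-4.76) and the Wnt effector LEF1 fell by 2.33.

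Interferon-stimulated genes were mostly lower, 17 of 30 (56.7%) against 7 that rose, with a median log2 fold change of -0.92; 7 rose and 18 fell without NT replicate 3. TRIM22, an antiviral ubiquitin ligase, was at 116, 127 and 137 CPM in the NT and 10.8, 10.6 and 9.37 CPM in the sh#16 libraries (log2 fold change -3.62, SE 0.10, adjusted p = 2.56e-08). OAS2, a sensor of double-stranded RNA, fell from 23.8 ± 0.393 to 2.17 ± 0.362 CPM (-3.45), as did GBP4 (-2.74) and IFIT2 (-2.44). The list is not uniform, since IFI6, ISG15 and BST2 rose by 1.68, 1.79 and 0.78, 3 genes picked after their values were seen. The call of ISG15 ended when any of 2 single libraries was left out (adjusted p up to 0.0118, without NT replicate 2). Genes of inflammasomes and pattern recognition fell in 10 of 17 cases and rose in 1 (median -1.04); 3 rose and 10 fell without NT replicate 3. They include the DNA sensor CGAS (from 54.8 ± 3.64 to 11.8 ± 1.30 CPM), the lectin receptor CLEC7A (-2.62), the caspase CASP4 (-1.90) and the adaptor MYD88 (-1.45). Of 20 MHC class I presentation genes, 10 fell and 4 rose. The peptide-trimming enzyme ERAP1 fell from 216 ± 13.7 to 38.4 ± 0.235 CPM (-2.49) and the immunoproteasome subunit PSMB10 fell by 2.93, while the peptide transporter TAP1 rose by 1.16. B2M, the light chain of class I molecules, was at 599, 524 and 503 CPM in the NT and 674, 616 and 616 CPM in the sh#16 libraries (0.23, adjusted p = 0.0320). MHC class II genes held 4 that rose and 4 that fell of 14, and their master factor CIITA rose by 0.36. The call of TAP1 ended when any of 4 single libraries was left out (adjusted p up to 0.0153, without NT replicate 2). The call of CIITA ended when any of 4 single libraries was left out (adjusted p up to 0.0207, without NT replicate 2).

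Most genes of the amino acid response fell. ATF4 is the transcription factor through which cells answer a shortage of amino acids, by raising amino acid synthesis, uptake and the charging of tRNA. Of 25 ATF4 and amino acid synthesis genes, 17 fell (68%) and 1 rose (4%), 11 of the lower genes as DEGs, with a median log2 fold change of -0.80; 2 rose and 17 fell without NT replicate 3. ATF4 itself was at 755, 761 and 645 CPM in the NT and 138, 139 and 128 CPM in the sh#16 libraries (log2 fold change -2.42, SE 0.08, adjusted p = 5.40e-08). ASNS, asparagine synthetase, was at 232, 220.1 and 234 CPM in the NT and 27.97, 27.7 and 30.1 CPM in the sh#16 libraries (log2 fold change -3.001, SE 0.07, adjusted p = 1.08e-08). SLC7A11, the cystine transporter, was at 111, 110.0 and 117 CPM in the NT and 2.29, 1.79 and 1.81 CPM in the sh#16 libraries (log2 fold change -5.85, SE 0.11, adjusted p = 7.40e-09). In all 3 genes every sh#16 library was below every NT library. The factors ATF5 and DDIT3 and the glutathione-degrading enzyme CHAC1 fell (-5.16, -3.52 and -4.20), and PHGDH, the entry enzyme of serine synthesis that was chosen after its value was seen, fell from 99.1 ± 16.2 to 15.4 ± 0.648 CPM (-2.69). CEBPB, a partner of ATF4, was the member that rose (1.04). The amino acid exchanger SLC7A5 was at 359.6, 576 and 879 CPM in the NT and 599, 598 and 588 CPM in the sh#16 libraries, a log2 fold change of -0.02 that did not pass and turned to 0.08 with upper-quartile scaling and to 0.32 without NT replicate 3.

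Cytosolic aminoacyl-tRNA synthetases, the enzymes that load amino acids onto tRNAs, fell in 14 of 20 cases (70%) and rose in 1, with a median log2 fold change of -1.17; 2 rose and 14 fell without NT replicate 3. WARS1, for tryptophan, was at 627, 641 and 647 CPM in the NT and 79.1, 80.2 and 79.3 CPM in the sh#16 libraries (log2 fold change -3.005, SE 0.06, adjusted p = 8.20e-09). AARS1, for alanine, fell from 475 ± 8.64 to 98.4 ± 3.30 CPM (-2.27), NARS1, for asparagine, from 499.5 ± 114 to 103.8 ± 2.35 CPM (-2.27) and GARS1, for glycine, from 595 ± 82.0 to 150.2 ± 5.15 CPM (-1.99). The member that rose was HARS1 (0.48), for histidine, and KARS1, FARSA, FARSB, RARS1 and VARS1 lay between -0.21 and 0.31 and did not pass. Among 21 amino acid transporters, 10 fell and 4 rose, with SLC7A1, the arginine and lysine carrier, from 432 ± 43.7 to 81.0 ± 3.19 CPM (-2.41).

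ATF4 pairs with C/EBP proteins on the motif TGATGNAA, which was searched on both strands from 250 bases before to 50 bases after the start of each gene in the RefSeq annotation of GRCh38.p14. It was found in 6 of 21 ATF4-list genes with a promoter entry (28.6%), in 7 of 16 tRNA synthetase genes (43.8%) and in 1217 of 27305 genes with an entry (4.46%). In the 250 bases before the start alone, the numbers were 4, 3 and 1061 genes, or 19%, 18.8% and 3.89%. The motif was matched by 0 of 20 cholesterol synthesis genes, too few genes to set apart from 4.46%. Of the matched ATF4-list genes, ASNS, ATF3, CHAC1 and SLC1A4 fell, while SLC1A5 (-0.28) and SLC3A2 (-0.42) did not pass. The matched tRNA synthetase genes fell. A match is a string of letters and not a measured site of binding. The ATF4 list was written by hand from general knowledge, so the share of matches in it is no independent evidence. Whether ATF4 had a part in the falls was not tested. The 250 bases before the start are shown for the named genes of each list with the largest falls and a match in this stretch, since they carry the shared letters; capitals mark the match, and each sequence runs 5′ to 3′ on the strand of its gene. CHAC1 lies at chr15:40953221-40953470 on the plus strand, with the match beginning 209 bases before the start and read from the opposite strand. ASNS lies at chr7:97872409-97872658 on the minus strand, with the match beginning 68 bases before the start. AARS1 lies at chr16:70289507-70289756 on the minus strand, with the match beginning 187 bases before the start and read from the opposite strand. GARS1 lies at chr7:30594628-30594877 on the plus strand, with the match beginning 33 bases before the start and read from the opposite strand.
CHAC1: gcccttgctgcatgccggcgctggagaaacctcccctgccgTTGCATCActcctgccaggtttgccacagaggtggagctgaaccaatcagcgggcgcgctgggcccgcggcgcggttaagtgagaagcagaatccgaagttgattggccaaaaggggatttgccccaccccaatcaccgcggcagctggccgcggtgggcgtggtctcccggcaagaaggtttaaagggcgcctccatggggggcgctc
ASNS: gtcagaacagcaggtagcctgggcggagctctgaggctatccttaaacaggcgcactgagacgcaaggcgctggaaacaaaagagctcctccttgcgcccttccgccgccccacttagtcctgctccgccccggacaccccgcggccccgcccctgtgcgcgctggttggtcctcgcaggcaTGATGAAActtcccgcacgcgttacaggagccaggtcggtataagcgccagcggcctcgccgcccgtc
AARS1: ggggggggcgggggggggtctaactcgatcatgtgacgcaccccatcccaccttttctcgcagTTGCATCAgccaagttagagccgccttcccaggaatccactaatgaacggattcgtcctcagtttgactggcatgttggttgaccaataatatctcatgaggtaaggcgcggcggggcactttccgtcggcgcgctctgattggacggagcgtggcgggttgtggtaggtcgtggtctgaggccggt
GARS1: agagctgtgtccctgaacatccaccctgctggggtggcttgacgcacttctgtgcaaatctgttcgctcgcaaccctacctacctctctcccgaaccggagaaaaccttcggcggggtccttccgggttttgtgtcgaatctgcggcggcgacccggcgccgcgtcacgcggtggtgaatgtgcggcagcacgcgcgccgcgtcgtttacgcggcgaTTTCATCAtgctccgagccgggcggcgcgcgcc

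Nucleolar ribosome biogenesis and translation factor genes mostly fell. Cytosolic ribosomal protein genes fell at about the share of all genes but rose less often. Nucleolar ribosome biogenesis genes fell in 35 of 56 cases (62.5%) and rose in 2, with a median log2 fold change of -0.68; 5 rose and 40 fell without NT replicate 3. UBTF, which opens ribosomal DNA for RNA polymerase I, was at 191, 189 and 182 CPM in the NT and 44.6, 48.5 and 46.0 CPM in the sh#16 libraries (log2 fold change -2.01, SE 0.07, adjusted p = 4.30e-08). UTP20, a factor of small subunit assembly, fell from 93.1 ± 7.13 to 23.7 ± 1.45 CPM (-1.97). Nucleolin, whose libraries were given above, had a log2 fold change -1.84 (SE 0.24, adjusted p = 1.33e-04), and FBL, the methyltransferase fibrillarin, rose by 0.56. Translation initiation and elongation factors fell in 26 of 45 cases and rose in 5 (median -0.47); 8 rose and 28 fell without NT replicate 3. EIF2S2, a subunit of the factor that brings the initiator tRNA, fell from 415 ± 122 to 71.8 ± 3.53 CPM (-2.53), and the inhibitor EIF4EBP2 rose from 184 ± 8.90 to 513 ± 17.0 CPM (1.48). Cytosolic ribosomal protein genes held 28 that fell (32.9%, against 30.2% of all genes), 7 that rose and 50 that did not pass, of 85, with a median of -0.21, and 17 rose and 37 fell without NT replicate 3; their processed copies in the genome make single members uncertain. MYC, the growth regulator, fell from 369.5 ± 72.5 to 259.7 ± 6.44 CPM (-0.51), and of 30 MYC target genes, 16 fell and 2 rose with no DEG among them (median -0.65); 4 rose and 18 fell without NT replicate 3. The call of MYC ended when any of 6 single libraries was left out (adjusted p up to 0.0249, without sh#16 replicate 3). PA2G4, a growth-regulated nucleolar protein, fell from 461 ± 96.5 to 190.4 ± 5.57 CPM (-1.28), and in the MYC network, where 5 rose and 3 fell of 12 (5 rose and 5 fell without NT replicate 1), the MYC antagonists MXD1, MXD3 and MXD4 rose by 0.87, 1.27 and 1.51.

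**Figure D3:**
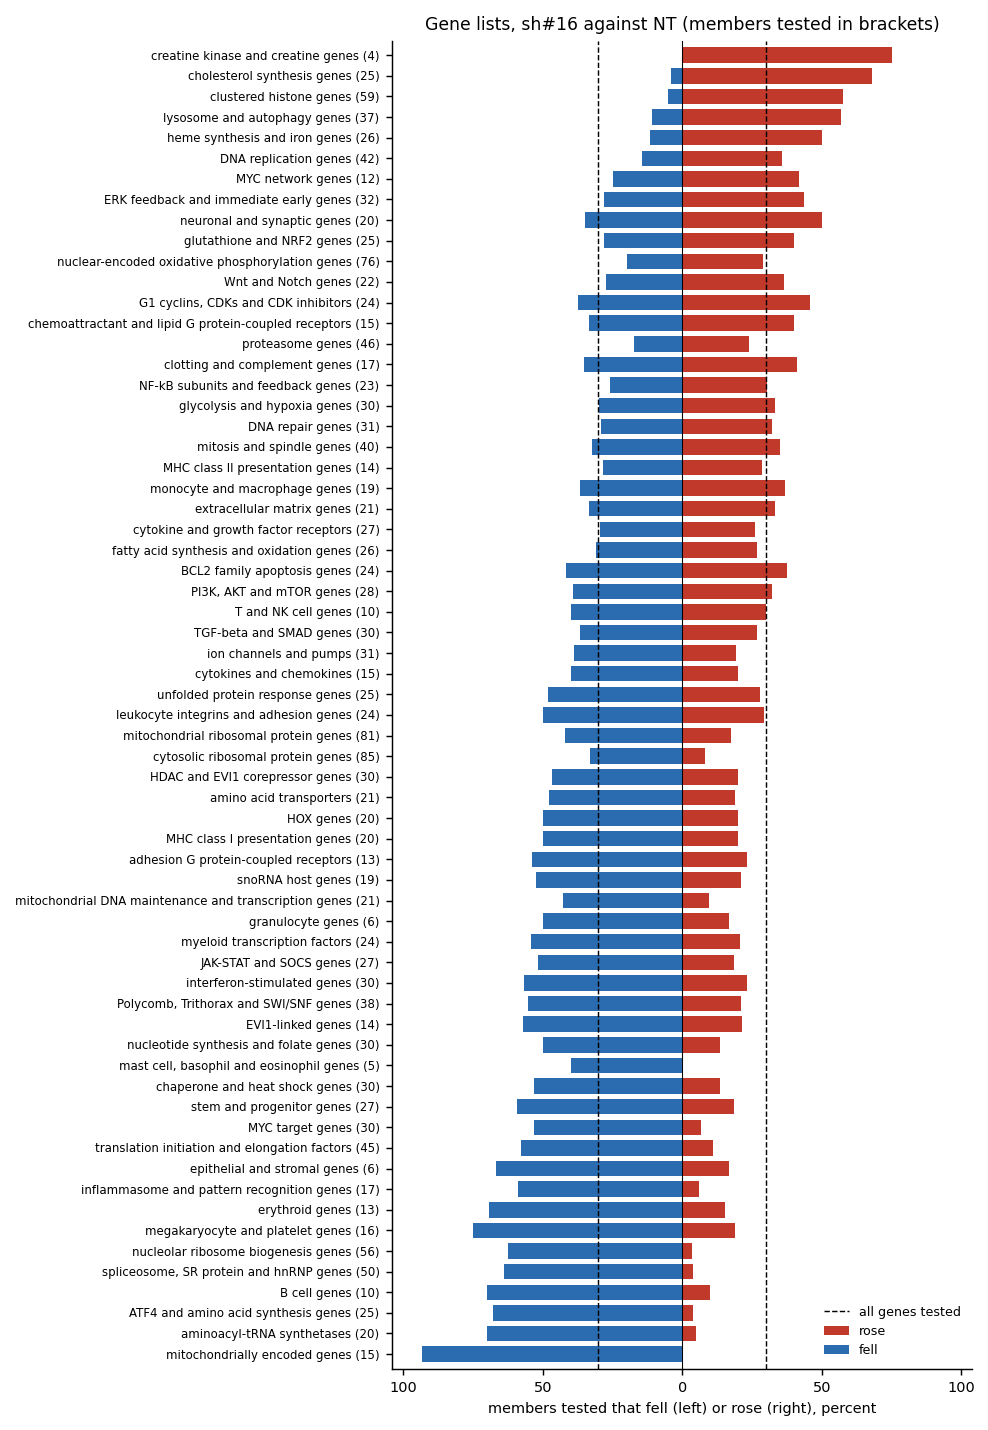
Share of the tested members of each of 64 gene lists that rose (right, percent) or fell (left, percent) with sh#16; dashed lines mark all genes tested, 29.8% and 30.2%. Nucleolar genes, tRNA synthetases and mitochondrially encoded genes reach far to the left, and cholesterol, histone and lysosome genes to the right.

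Most mitochondrially encoded RNAs fell, while the nuclear genes of the same complexes were divided. Of 15 mitochondrially encoded genes, 14 fell and 0 rose, 11 of them as DEGs, with a median log2 fold change of -2.81. MT-ND4, a subunit of complex I, was at 33705, 23123 and 6266 CPM in the NT and 2208, 2694 and 2424 CPM in the sh#16 libraries (log2 fold change -3.11, SE 0.51, adjusted p = 4.96e-04). MT-CO1, the catalytic subunit of cytochrome oxidase, was at 34401, 30313 and 16912 CPM in the NT and 10721, 10278 and 9871 CPM in the sh#16 libraries (log2 fold change -1.40, SE 0.24, adjusted p = 6.40e-04). NT replicate 3 was the lowest NT library in both and still lay above all sh#16 libraries. The summed level of the 15 genes was 48919 to 197554 CPM in NT and 24943 to 27056 CPM in sh#16 libraries, and the list's median was -2.06 without NT replicate 1 and -3.27 without NT replicate 3. With these genes removed before normalization, 2086 genes were DEGs in place of 2087. Of 76 nuclear-encoded oxidative phosphorylation genes, 22 rose (28.9%) and 15 fell (19.7%), with no DEG and a median of 0.20; 32 rose and 16 fell without NT replicate 3. COX8A, a small subunit of cytochrome oxidase, was at 10.5, 16.6 and 44.0 CPM in the NT and 68.8, 71.5 and 75.4 CPM in the sh#16 libraries (log2 fold change 1.59, SE 0.42, adjusted p = 0.00739). The complex III subunit UQCRB fell from 282 ± 155 to 84.0 ± 9.53 CPM (-1.75). The call of COX8A ended when any of 7 single libraries was left out (adjusted p up to 0.0327, without NT replicate 2). The call of UQCRB ended without sh#16 replicate 1 (adjusted p up to 0.0129). Mitochondrial ribosomal protein genes fell in 34 of 81 cases and rose in 14 (median -0.25), from MRPL3 at -1.64 to MRPL41 at 1.86. Of 21 genes of mitochondrial DNA maintenance and transcription, 9 fell and 2 rose; 5 rose and 9 fell without NT replicate 3. TFAM, which packages and transcribes mitochondrial DNA, was at 151, 134 and 119 CPM in the NT and 134, 125 and 135 CPM in the sh#16 libraries and did not pass (-0.04, which turned positive with upper-quartile scaling and without NT replicate 1 or sh#16 replicate 2).

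**Figure D4:**
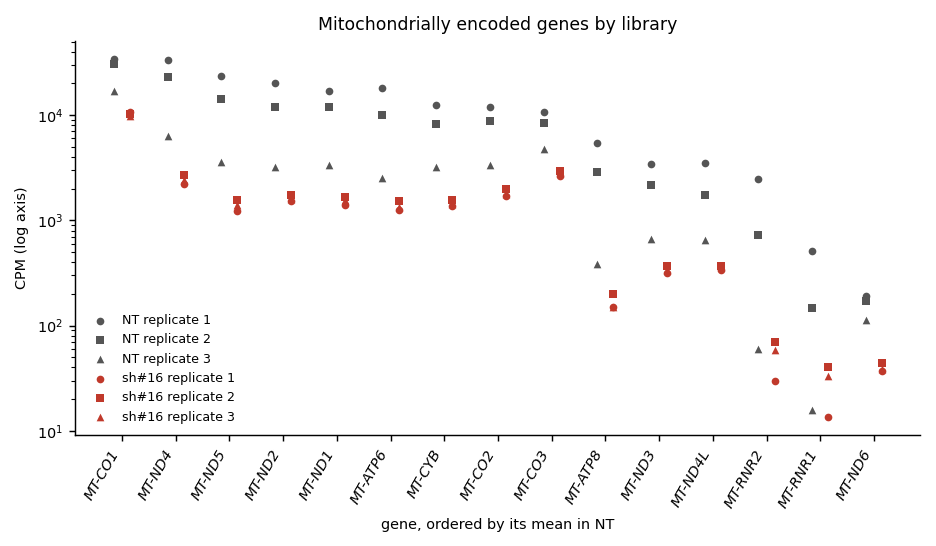
Level of the 15 mitochondrially encoded genes (horizontal axis) in CPM on a log axis (vertical axis), with 1 marker per library, NT in grey and sh#16 in red. NT replicates are spread and the 3 sh#16 libraries overlie one another below them in most genes.

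Most cholesterol synthesis genes rose. These enzymes turn acetyl-CoA into cholesterol under the control of SREBP factors, which INSIG proteins hold back when sterol is plentiful. Of 25 genes, 17 rose (68%) and 1 fell (4%), with a median log2 fold change of 0.84; 19 rose and 2 fell without NT replicate 3. INSIG1 was at 28.7, 28.4 and 35.3 CPM in the NT and 197, 188 and 202 CPM in the sh#16 libraries (log2 fold change 2.66, SE 0.09, adjusted p = 5.40e-08). LSS, which closes the sterol rings, was at 6.32, 7.93 and 11.5 CPM in the NT and 37.9, 38.7 and 38.2 CPM in the sh#16 libraries (log2 fold change 2.15, SE 0.18, adjusted p = 7.42e-06). SREBF2, the factor behind the pathway, was at 102, 120.1 and 151 CPM in the NT and 103, 105 and 103 CPM in the sh#16 libraries and did not pass (-0.27); FDFT1, chosen after its value was seen, fell by 0.54. Fatty acid genes showed no common direction, 7 rose and 8 fell of 26: the fatty acid activating enzyme ACSL5 fell from 62.4 ± 3.33 to 7.34 ± 0.274 CPM (-3.08) and the nuclear receptor PPARD rose from 13.6 ± 1.09 to 52.5 ± 1.07 CPM (1.95).

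Heme and iron genes were higher in 13 of 26 cases (50%) and lower in 3, with a median log2 fold change of 0.45; 13 rose and 3 fell without NT replicate 3. HMOX1, which breaks heme down, was at 7.83, 13.5 and 22.2 CPM in the NT and 55.0, 57.3 and 54.8 CPM in the sh#16 libraries (log2 fold change 1.93, SE 0.29, adjusted p = 3.09e-04), and every sh#16 library was above NT replicate 3, the highest of a spread NT group. Ferritin light chain FTL rose from 250.2 ± 118 to 649 ± 5.56 CPM (1.37). The call of FTL ended without NT replicate 2 (adjusted p up to 0.0101). Ferritin heavy chain FTH1 was at 857, 711 and 541 CPM in the NT and 666, 749.8 and 724 CPM in the sh#16 libraries, a log2 fold change of 0.02 that did not pass and was -0.16 without NT replicate 3. The transferrin receptor TFR2 fell from 19.8 ± 4.12 to 4.27 ± 0.121 CPM (-2.21). Of 25 glutathione and NRF2 genes, 10 rose and 7 fell. GSTM3 rose by 2.40 and NQO1, a classical NRF2 target, fell by 0.69. Nucleotide synthesis and folate genes fell in 15 of 30 cases (50%) and rose in 4 (median -0.30). The mitochondrial folate enzyme MTHFD1L fell from 53.003 ± 0.310 to 9.49 ± 0.501 CPM (-2.48), whereas TK1, thymidine kinase of S phase, rose from 37.0 ± 8.13 to 177 ± 4.96 CPM (2.25). Glycolysis and hypoxia genes were split, 10 rose and 9 fell of 30 and 16 rose and 10 fell without NT replicate 3; LDHA fell from 628 ± 95.04 to 263 ± 4.77 CPM (-1.26) and EPAS1, a hypoxia-inducible factor, rose from 1.29 ± 0.150 to 9.25 ± 0.798 CPM (2.84). Of 4 creatine genes, 3 rose, among them the transporter SLC6A8 (1.75) and GAMT (1.78), and CKB, creatine kinase B, was at 1.55, 1.95 and 3.70 CPM in the NT and 0.803, 1.49 and 1.53 CPM in the sh#16 libraries and did not pass.

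Genes of cell division did not share a direction. DNA replication genes rose in 15 of 42 cases and fell in 6 (median 0.23; 20 rose and 10 fell without NT replicate 3), and mitosis and spindle genes rose in 14 of 40 and fell in 13 (median -0.05). MKI67, the proliferation marker, was at 879, 697 and 416 CPM in the NT and 539, 570.4 and 547 CPM in the sh#16 libraries and did not pass (-0.27, adjusted p = 0.302). PCNA, the clamp of DNA polymerases, rose by 0.64 and the mitotic kinase AURKB by 1.26, while HMMR, a spindle protein, fell by 1.60. Among G1 genes, CDKN1A, the CDK inhibitor p21, was at 24.9, 38.1 and 64.2 CPM in the NT and 199.6, 210.0 and 205 CPM in the sh#16 libraries (log2 fold change 2.27, SE 0.28, adjusted p = 7.47e-05). CDKN2D, another inhibitor, rose from 2.92 ± 1.34 to 14.2 ± 0.443 CPM (2.27), and CDK6 and CCND2, which drive G1, fell from 943 ± 65.2 to 335 ± 11.71 CPM and from 1158 ± 25.7 to 439.9 ± 10.8 CPM (-1.49 and -1.40). The groups did not overlap in any of these 4 genes. The ubiquitin ligase MDM2 fell from 391 ± 24.7 to 132 ± 2.92 CPM (-1.57) and the death receptor FAS fell by 2.62. Of 24 BCL2 family and apoptosis genes, 10 fell and 9 rose: BCL2 and BCL2L1, which protect cells, fell (-1.01 and -1.67). MCL1, also protective, rose by 0.67, and the death effectors BAK1 and BAD rose by 1.47 and 2.03. H2AX, the histone variant of DNA breaks, rose from 37.7 ± 21.6 to 429 ± 21.8 CPM (log2 fold change 3.50, SE 0.36, adjusted p = 2.53e-05), in a DNA repair list of 31 genes of which 10 rose and 9 fell.

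Clustered histone genes rose in 34 of 59 cases (57.6%) and fell in 3, with a median log2 fold change of 0.96; 38 rose and 6 fell without NT replicate 3. Their mRNAs mostly lack a polyA tail, so a polyA-selected library holds an unknown part of them. H4C4, a histone H4 gene, was at 1.63, 1.86 and 2.57 CPM in the NT and 109, 112 and 125 CPM in the sh#16 libraries (log2 fold change 5.81, SE 0.17, adjusted p = 2.59e-08). H3C1, a histone H3 gene, rose from 9.41 ± 3.50 to 59.98 ± 3.21 CPM (2.66). Reads of H3C14, H3C15 and H2AC18 can come from near-identical copies, and their values of 2.44, 2.52 and -8.32 are uncertain. The call of H2AC18 ended when any of 5 single libraries was left out (adjusted p up to 0.0264, without sh#16 replicate 2).

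Regulators of chromatin and RNA were lower more often than higher. HDAC and EVI1 corepressor genes fell in 14 of 30 cases and rose in 6. DNMT3A, a DNA methyltransferase, fell from 213 ± 11.5 to 48.0 ± 1.77 CPM (-2.15), HDAC2 and the corepressor CTBP2 fell (-1.26 and -1.12), and HDAC3 rose from 40.1 ± 5.53 to 118 ± 1.35 CPM (1.56). CTBP1, the corepressor that EVI1 binds, was at 51.7, 71.3 and 107 CPM in the NT and 71.1, 67.3 and 64.7 CPM in the sh#16 libraries, and its log2 fold change of -0.18 did not pass and was 0.12 without NT replicate 3. Polycomb, Trithorax and SWI/SNF genes fell in 21 of 38 cases (55.3%) and rose in 8 (median -0.41). The DNA demethylases TET1 and TET2, listed with them, fell (-1.95 and -1.91), EZH2, the Polycomb methyltransferase, did not pass (-0.18), and the remodeller subunit SMARCD3 rose from 1.11 ± 0.374 to 20.01 ± 0.489 CPM (4.15). Spliceosome, SR protein and hnRNP genes fell in 32 of 50 cases (64%) and rose in 2, with no DEG and a median of -0.46; 4 rose and 36 fell without NT replicate 3. HNRNPD, which binds AU-rich mRNAs, was at 672, 515 and 356 CPM in the NT and 148, 156 and 155 CPM in the sh#16 libraries (log2 fold change -1.75, SE 0.19, adjusted p = 4.00e-05). The splicing factor SRSF6 fell from 192 ± 13.3 to 63.5 ± 3.43 CPM (-1.60). Of 19 snoRNA host and long noncoding genes, 10 fell and 4 rose, with SNHG8 at -1.97 and SNHG6 at -1.93 among those that fell. The call of SNHG6 ended without sh#16 replicate 1 (adjusted p up to 0.0105).

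Lysosome and autophagy genes were higher in 21 of 37 cases (56.8%) and lower in 4, with a median log2 fold change of 0.53; 24 rose and 5 fell without NT replicate 3. GRN, progranulin, was at 22.0, 46.4 and 76.1 CPM in the NT and 204, 210.1 and 203 CPM in the sh#16 libraries (log2 fold change 2.09, SE 0.35, adjusted p = 5.09e-04). NPC2, which moves cholesterol out of lysosomes, was at 12.3, 12.6 and 12.9 CPM in the NT and 49.8, 50.03 and 45.7 CPM in the sh#16 libraries (log2 fold change 1.94, SE 0.07, adjusted p = 7.22e-08). The membrane protein LAMP1 rose from 132 ± 17.7 to 232 ± 6.69 CPM (0.82), and the members that fell include the leukocyte proteases CTSG and CTSS given above. Chaperone and heat shock genes fell in 16 of 30 cases and rose in 4 (median -0.42). HSPA9, the mitochondrial HSP70, was at 1387, 1189 and 930.0 CPM in the NT and 252, 256 and 260.0 CPM in the sh#16 libraries (log2 fold change -2.19, SE 0.13, adjusted p = 1.04e-06). HSPA8 fell by 1.09, and the stress-induced BAG3 rose from 3.56 ± 0.153 to 15.7 ± 0.675 CPM (2.14), like HSPA1A and HSPA1B (2.08 and 2.87), whose reads cannot be assigned to either copy. Unfolded protein response genes fell in 12 of 25 cases and rose in 7, with HSPA5, the chaperone of the endoplasmic reticulum, from 483 ± 86.97 to 170.3 ± 2.79 CPM (-1.51) and the membrane-bound factor CREB3 at 2.07. The proteasome was split: of 46 genes, 11 rose and 8 fell and 27 did not pass.

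At the cell surface and in the cytoskeleton single genes moved far in lists without a common direction. Leukocyte integrins and adhesion genes fell in 12 of 24 cases and rose in 7. SELPLG, the ligand of selectins, was at 90.6, 103.8 and 101 CPM in the NT and 25.0, 25.0 and 23.7 CPM in the sh#16 libraries (log2 fold change -2.004, SE 0.08, adjusted p = 7.96e-08). ITGA4 fell by 1.04 and ITGB7 rose by 1.95. The adhesion protein vinculin (VCL) rose from 107 ± 10.98 to 362 ± 9.74 CPM (1.76) and the actin crosslinker FLNA from 244 ± 92.8 to 724 ± 13.6 CPM (1.57). GPR84, a receptor of medium-chain fatty acids on phagocytes, was at 3.83, 4.51 and 4.74 CPM in the NT and 76.6, 73.4 and 72.1 CPM in the sh#16 libraries (log2 fold change 4.08, SE 0.11, adjusted p = 2.30e-08). The homing receptor CCR7 rose from 9.44 ± 0.368 to 57.6 ± 2.02 CPM (2.61). Both receptors were higher in every sh#16 library than in any NT library. Adhesion G protein-coupled receptors fell in 7 of 13 cases and rose in 3, among them ADGRB2, described above. ADGRG5 fell from 171 ± 67.7 to 22.2 ± 0.647 CPM (-2.94), and so did ADGRG1 (-0.97). Among ion channels and pumps (12 fell and 6 rose of 31), the potassium channel genes KCNQ5 and KCNE3 fell from 111 ± 12.7 to 7.28 ± 0.138 CPM and from 19.8 ± 2.01 to 0.710 ± 0.0264 CPM (-3.93 and -4.78), and the calcium-activated channel TRPM4 rose by 2.29. Clotting and complement genes were split, 7 rose and 6 fell of 17: C3, the central complement protein, rose from 0.244 ± 0.0656 to 5.07 ± 0.0467 CPM (4.33) and TFPI, the inhibitor of tissue factor, fell from 68.7 ± 12.1 to 13.2 ± 0.483 CPM (-2.38). Of 21 extracellular matrix genes 7 rose and 7 fell, with the basement membrane chain LAMA5 from 3.52 ± 1.85 to 13.9 ± 0.331 CPM (1.96) and the protease MMP14 from 138 ± 34.6 to 45.9 ± 2.96 CPM (-1.59).

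The direct contrast of sh#16 with sh#87 came from the same fit, so the NT libraries had a part in its filter, scaling and estimate of the spread. By the same threshold, sh#16 was higher in 1537 genes (9.42%) and lower in 1353 genes (8.29%). Of these, 74 genes (0.454%) also differed by 2 or more on the log2 scale, against 86 in a fit without the NT libraries. Of the 2087 DEGs of sh#16, 404 differed from sh#87 in this test, 81 lying further from NT with sh#16 and 323 less far. Members of the stem cell list lay on median 0.53 above sh#87 on the log2 scale, with 11 genes higher and 2 lower with sh#16 in the direct test. For the ATF4 list the median difference was 0.14 (4 higher, 3 lower), and for tRNA synthetases 0.16 (4 and 2). It was for cholesterol synthesis genes 0.31 (7 and 0) and for mitochondrially encoded genes -0.97 (0 and 2). NEAT1 differed from sh#87 by -1.44 (SE 0.09, adjusted p = 4.28e-05) and MALAT1 by -0.9998 (SE 0.18, adjusted p = 0.00335), so that both rises were smaller with sh#16. The sh#87 libraries were at 15555, 16630.3 and 16265 CPM for NEAT1 and at 42499.6, 39882 and 40914 CPM for MALAT1. ZNF462 was lower with sh#16 (-2.45, SE 0.48, adjusted p = 0.00540), with sh#87 libraries at 0.582, 0.357 and 0.407 CPM.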

How the data were processed

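PolyA-selected, strand-specific libraries were sequenced from HNT34 cells, 3 each for NT, sh#16 and sh#87, and grouped by their titles, though another label numbers the sh#87 construct 18. The values the authors deposited are estimated counts of 16612 gene symbols, not normalized, in a table whose header stands 1 column left of the values. The submitters' notes name FastQC 1.3, STAR and GRCh38, and the table header names salmon output, so which tool gave the counts is not settled; all values were whole numbers. Genes with near-identical copies may share reads.

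Genes were filtered with filterByExpr (16312 kept) and tested with TMM scaling and the quasi-likelihood test of edgeR 4.0.16 in R 4.3.3, in 1 fit of the 9 libraries with Benjamini-Hochberg adjustment over all genes tested. SEs were calculated from each log2 fold change and the F statistic of its quasi-likelihood test. DEGs changed by 2 or more on the log2 scale in either direction with an adjusted p up to 0.01, as in the study. On simulated counts for this comparison (14814 genes), 49 of 50 genes changed by 2 on the log2 scale passed the adjusted p threshold and 31 were called, 34 of 50 changed by 1 passed the adjusted p threshold, and 2 of 14614 unchanged genes were called. The simulation gave each gene the same spread in every group and left most genes unchanged. In the data the NT libraries spread far more (25.0% against 3.75%) and most genes passed, so these numbers are not the error rates of the data. A level of 0 is bounded by 3 counts, which covers counting error only, and ratios with few counts carry a 95% exact counting interval.

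The comparison, the 66 gene lists and their anchors were chosen with earlier results of these data known. Named are MECOM; the 8 highest and 8 lowest log2 fold changes among genes with an adjusted p of at most 0.01, no overlap and at least 5 CPM in the higher group; the 6 largest gains and losses in CPM; for each list its anchors and up to 4 members with the largest changes; and 4 genes per direction between sh#16 and sh#87. BAALC, BST2, CEBPB, FARSA, FARSB, FCGR2A, FDFT1, FLT3, H2AC18, HARS1, HOXA10, IFI6, IL3RA, ISG15, KARS1, LYZ, PHGDH, PROCR, RARS1, SREBF2 and VARS1 were named after their values were seen. Alternatives were RLE and upper-quartile scaling, other filters and thresholds, DESeq2 1.42.0, limma-voom (limma 3.58.1), a fit of 2 groups, the removal of mitochondrially encoded or of ribosomal and small RNA genes, the thinning of sh#16 replicate 2, a replicate block and each library left out in turn; the thinning and the removal of ribosomal and small RNA genes were chosen after seeing the data. Replicate numbers were not used as pairs in the main fit. Once group means were subtracted, libraries with equal numbers had correlations of -0.137 to 0.0826. Libraries with unequal numbers were not correlated in this way, so these values do not show whether the numbers pair libraries. Promoters are from RefSeq (GRCh38.p14). Figures used Python 3.11.15 and matplotlib 3.10.9. The shRNA sequences are not shown here, and some genes and gene lists are not reported here.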

Additional observations from a re-analysis of the deposited data

Results flagged for a closer look

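In 10 named genes sh#16 and sh#87 differed by 2 or more on the log2 scale in edgeR's direct test, with a passing adjusted p. In each of them the 3 sh#16 and the 3 sh#87 libraries did not overlap. Other named genes, such as NEAT1, MALAT1 and MECOM, passed the same test with smaller differences and are not repeated here. Such genes were looked for because the comparisons with NT alone cannot show a difference. Genes named for a difference between the shRNAs had to pass this test without overlap, so for them neither is added support. GATA1 was higher with sh#16 by 3.21 (SE 0.53, adjusted p = 0.00236) on the log2 scale, at 0.883, 1.23 and 1.37 CPM with sh#16 and 0.0832, 0.179 and 0.102 CPM with sh#87, which are levels of a few counts with sh#87. HEMGN, an erythroid nuclear protein, was higher by 2.10 (SE 0.36, adjusted p = 0.00271), at 2.57, 2.62 and 2.19 CPM with sh#16 and 0.707, 0.313 and 0.712 CPM with sh#87. MB, myoglobin, was at 16.4, 15.5 and 15.8 CPM with sh#16 and 2.25, 2.99 and 3.10 CPM with sh#87, a difference of 2.52 (SE 0.13, adjusted p = 1.82e-05), while its log2 fold change with sh#16 against NT was -0.05. The histone gene H2BC14 was higher with sh#16 by 2.53 (SE 0.28, adjusted p = 4.06e-04), at 75.2, 89.2 and 87.3 CPM with sh#16 and 19.9, 11.98 and 11.6 CPM with sh#87.

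The imprinted-region transcript PWAR5 was at 4.74, 6.14 and 9.31 CPM with sh#16 and had 0 counts in every sh#87 library, so its fitted difference of 10.42 (SE 0.82, adjusted p = 2.78e-04) is no bound. The small RNA RNY3 was higher with sh#16 by 4.05 (SE 0.87, adjusted p = 0.00772), at 3.45, 7.98 and 4.16 CPM with sh#16 and 0.333, 0.581 and 0 CPM with sh#87, and a polyA-selected library holds an unknown part of it. Lower with sh#16 were the nuclear receptor NR4A2 by -2.94 (SE 0.15, adjusted p = 1.68e-05), at 11.8, 10.5 and 11.2 CPM with sh#16 and 81.6, 79.7 and 94.4 CPM with sh#87, and FTCD, a folate enzyme, by -2.82 (SE 0.20, adjusted p = 6.12e-05), at 0.883, 0.973 and 0.931 CPM with sh#16 and 6.90, 6.35 and 6.66 CPM with sh#87. ZNF462 differed by -2.45 (SE 0.48, adjusted p = 0.00540) and the unnamed transcript RP1-86C11.7 by -4.21 (SE 0.27, adjusted p = 4.83e-05), and the sh#16 libraries of both held few counts. The cause of these differences was not tested.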

How the results depend on the processing

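The number of DEGs of sh#16 against NT lay between 1782 (limma-voom with a weight per group) and 2175 (adjusted p of at most 0.05) under the other tools, scalings, filters and groupings of libraries, and between 1977 without NT replicate 2 and 2453 without NT replicate 3 when single libraries were left out; with a cutoff of 1 on the log2 scale it was 5551. Of the DEGs 62.2% were higher, against 58.3% with the weighted limma-voom fit and 66.6% with upper-quartile scaling, which shifted the median of all genes by 0.104, and 54.5% with the cutoff of 1. Upper-quartile scaling turned the 4868 higher and 4922 lower genes with a passing adjusted p into 5544 and 4331. Genes past the adjusted p threshold numbered 8200 without sh#16 replicate 2 to 11224 without NT replicate 3. There were 8531 with the weighted limma-voom fit and 8404 with the fit of 2 groups. For sh#16 against sh#87 the 74 DEGs became 119 with the weighted limma-voom fit and 697 with the cutoff of 1, and leaving out single libraries gave 47 (sh#16 replicate 2) to 86 (NT replicate 3), and 48 without sh#87 replicate 2; the cause was not tested. The log2 fold change of MECOM lay between -1.70 with upper-quartile scaling and -1.92 without NT replicate 3. With the replicate number as a block, which pairs libraries by a number only, there were 2056 DEGs, 9105 genes past the adjusted p threshold and 52 DEGs between the shRNAs, and MECOM was at -1.80.

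Of the named genes, 15 lost a call against NT when single libraries were left out, among them MYC, COX8A, TAP1 and CIITA; CEBPA passed with upper-quartile scaling, DESeq2 and limma-voom and without NT replicate 3. The replicate block ended the calls of MYC, PWAR5 and RNY3 against NT and of no other named gene. Calls of named genes against NT also ended under other tools and groupings. The weighted limma-voom fit and the fit of 2 groups each ended 6, limma-voom 3, DESeq2 2 and upper-quartile scaling 1.

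Directions turned in genes that had not passed. FTH1 became -0.003 with RLE scaling and with DESeq2, and -0.014 without sh#16 replicate 2, in a range of -0.163 (without NT replicate 3) to 0.172 (without NT replicate 1). SLC7A5 became 0.084 with upper-quartile scaling, 0.070 with limma-voom, 0.066 with the weighted fit, 0.034 with the replicate block, and lay between -0.307 without NT replicate 1 and 0.324 without NT replicate 3. TFAM became 0.066 with upper-quartile scaling, and 0.038 without NT replicate 1 and 0.002 without sh#16 replicate 2, with -0.144 without NT replicate 3. CTBP1 lay between -0.418 without NT replicate 1 and 0.116 without NT replicate 3, and upper-quartile scaling gave 0.036 for RUNX1 and 0.055 for MB. The medians of these lists changed sign in at least 1 setting, among others: BCL2 family apoptosis genes, DNA repair genes, MHC class II presentation genes, PI3K, AKT and mTOR genes, TGF-beta and SMAD genes, Wnt and Notch genes, extracellular matrix genes, ion channels and pumps and mitosis and spindle genes. Limits are the spread of the NT libraries, which carry every comparison with NT, 1 construct per knockdown and a depth at which genes under about 1 CPM rest on few counts.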
